A study of Homo sapiens with 16 samples.

Results

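The 48 genes described here encode the cytosolic translation initiation factors eIF1 to eIF6, the elongation factors eEF1 and eEF2, the cytoplasmic poly(A)-binding protein PABPC1 and the translationally controlled protein TPT1. They were taken as a list of gene symbols and matched to the Ensembl identifiers of the count tables. All 48 symbols matched 1 identifier each, out of 60662 identifiers in all. EEF1G (ENSG00000254772.10), the structural subunit of the eEF1 complex, was listed at 0 reads in all 16 libraries, and 47 genes had enough reads to be tested. RNA-seq had been made from wild-type Jurkat E6-1 cells, an established human T lymphoma line. The peroxide group was 8 libraries of cells taken up in phosphate-buffered saline and exposed to 10 µM hydrogen peroxide for 4 h. The control group was 8 libraries of untreated cells at 0 h. Both groups grew in the same RPMI medium with 10% serum before the experiment, and no library of cells kept in saline for 4 h without peroxide was analysed here. Peroxide, the change of medium and 4 h of time therefore cannot be told apart in any value below. Names of the deposited tables put the libraries in 2 batches, each with 4 peroxide and 4 control libraries, and neither the labels nor the tables say what separates them. The comparison asked which transcripts of the translation machinery differed between treated and untreated cells.

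Initiation begins when eIF1, eIF1A, eIF3, eIF5 and the complex of eIF2, GTP and initiator tRNA assemble on the small ribosomal subunit. The eIF4F complex of the cap-binding protein eIF4E, the scaffold eIF4G and the helicase eIF4A brings in the mRNA, and the subunit scans to a start codon, where eIF5 and eIF5B let the large subunit join. Stress kinases slow the cycle by phosphorylating eIF2, which then blocks its exchange factor eIF2B, and the eIF4E-binding proteins slow it by keeping eIF4E from eIF4G. The elongation factors then deliver tRNAs (eEF1) and move the ribosome along the mRNA (eEF2). Several of these factors are themselves translated from mRNAs that begin with a C followed by a tract of pyrimidines, the 5′ terminal oligopyrimidine (TOP) tract. TOP mRNAs also encode the ribosomal proteins, and their translation and stability depend on the kinase mTOR and the binding protein LARP1.

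The start sites of the genes that the results turn on are shown first, because the TOP class is defined by the first bases of the mRNA. Each line is a window of 30 bases on the transcribed strand, 15 before the annotated start and 15 from it, read from RefSeq promoters of build GRCh38.p14. Capitals mark the annotated first base and the unbroken pyrimidines after it. Of the 48 genes, 39 had an entry, with 53 annotated starts. The first set holds genes whose mRNAs are known as TOP mRNAs.
EEF1A1: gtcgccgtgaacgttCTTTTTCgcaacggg (chr6:73521018-73521047, minus strand)
EEF1B2, its second start: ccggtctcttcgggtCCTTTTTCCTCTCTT (chr2:206159880-206159909, plus strand)
EEF2: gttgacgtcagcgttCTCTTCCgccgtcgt (chr19:3985449-3985478, minus strand)
TPT1: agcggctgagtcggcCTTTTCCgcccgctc (chr13:45341169-45341198, minus strand)
EIF3F: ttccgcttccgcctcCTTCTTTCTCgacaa (chr11:7987322-7987351, plus strand)
The next set holds genes not on the list of known TOP mRNAs used here, whose annotated start is also a C with at least 5 pyrimidines in a row, counting the C. EIF3D, EIF3K and EIF4B have such a start too and are not shown.
EIF4A2: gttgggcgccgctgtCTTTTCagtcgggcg (chr3:186783562-186783591, plus strand)
EIF2A: tcacccgagcggtttCTCTTTCCgggacaa (chr3:150546772-150546801, plus strand)
EIF3M: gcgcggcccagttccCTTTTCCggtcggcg (chr11:32583816-32583845, plus strand)
EIF2S3: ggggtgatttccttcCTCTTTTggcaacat (chrX:24054941-24054970, plus strand)
The last set is a contrast of genes that changed, each with a start that is not a C.
EIF1: aggcaccgcccctctGCCCCagtcactgag (chr17:41688870-41688899, plus strand)
EIF4A3: gttctcggcagcggcACagcgaggtcggca (chr17:80147114-80147143, minus strand)
EIF5, its first start: gcggcggcgttgttcAgtcagagcgagaac (chr14:103334222-103334251, plus strand)
EIF4G3, its second start: cgaagttttccgagcAgccgtcctgccgga (chr1:21176883-21176912, minus strand)
The tract of EEF1B2 ran on for 16 bases and so past the end of its window. EIF1 begins with a G before 4 cytosines, and the starts shown for EIF4A3, EIF5 and EIF4G3 are an A. The other annotated start of EIF4G3 is a C followed by an A. EEF1G, which is known as a TOP gene, has an annotated start at an A.

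Transcripts of translation factors were mostly higher in peroxide cells. Of the 47 tested genes 28 rose and 2, EIF4G3 and EIF4EBP2, fell, and 17 did not pass (edgeR quasi-likelihood test, Benjamini-Hochberg adjusted p under 0.05 over 14092 genes). That is 59.6% higher and 4.26% lower, beside 24.1% higher and 24.3% lower among all tested genes. The median log2 fold change of the 47 genes was 0.22, beside -0.01 over all tested genes, whose 10th and 90th percentiles were -0.44 and 0.63. The change of most genes was thus small, and 3 genes, EIF1, EIF4A2 and EIF4A3, rose 2-fold or more, where 5.93% of all tested genes did. In 10 genes every peroxide library lay above every control library (EIF1, EIF1B, EIF2S2, EIF2A, EIF3M, EIF4A3, EIF4G2, EIF5, EEF1A1 and TPT1). Among all tested genes 6.76% had all peroxide libraries above all controls and 4.49% had them below. With total read counts in place of TMM scaling factors, 24 of the 47 genes rose and 5 fell, and the 14092 genes split into 2822 higher and 4375 lower. In such bulk libraries, less RNA per cell and fewer cells that hold it cannot be told apart.

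**Figure D1:**
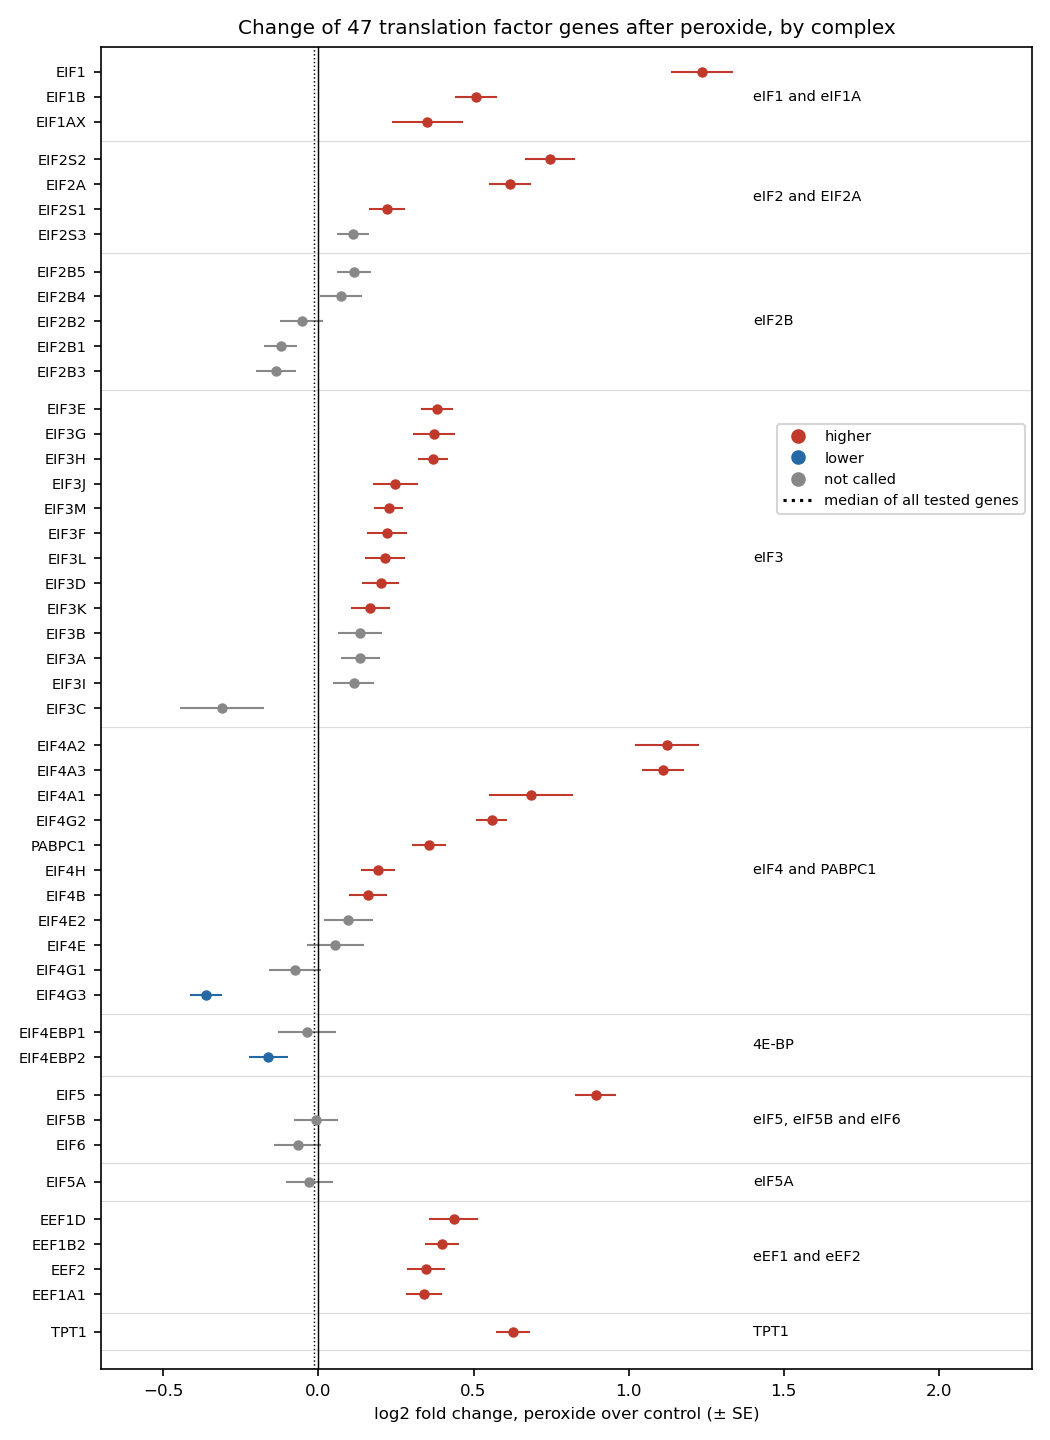
Log2 fold change of peroxide over control for the 47 tested genes (x axis), grouped by complex (y axis), with bars of 1 SE from edgeR. Red points rose, blue points fell and grey points did not pass, and the dotted line is the median of all tested genes at -0.01. EIF1, EIF4A2 and EIF4A3 stand to the right of 1, and the eIF2B genes stand on both sides of 0.

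Library facts set the precision of these values. Reads in genes ranged from 7378435 to 10090165 in peroxide libraries and from 5556553 to 15720881 in controls. Reads not aligned uniquely made up 33.3% to 45.8% of counted reads in peroxide libraries and 30.2% to 47.2% in controls, with medians of 37.3% and 32.5%. In batch 2 they made up 35.7% to 45.8% in peroxide libraries and 31.8% to 33.7% in controls, without overlap. In batch 1 the ranges overlapped, at 33.3% to 39.8% and 30.2% to 47.2%. The part of this difference in the results below was not tested. Such reads were highest in control 1 and peroxide 5. Without those 2 libraries 26 of the genes rose and 3 fell, beside 22.4% higher and 22.7% lower among all tested genes. All 10 T cell markers were present in this T cell line, at 58.6 to 971.6 CPM (reads of a gene per 1000000 reads in genes, TMM-scaled) in every library, with sums of 2890 to 3625 CPM in peroxide libraries and 2770 to 3631 CPM in controls. Of 12 markers of B, myeloid, erythroid, epithelial and stromal cells, 9 were under 1 CPM in every library and 3 of these were at 0, and the 12 summed to 37.5 to 62.3 CPM in peroxide libraries and 34.9 to 56.0 CPM in controls. Most of that sum was CD79A, a B cell receptor subunit. Of all 22 markers 4 passed the test. CD14, a myeloid receptor, held 1.98 to 5.30 CPM in peroxide libraries, against 0.0595 to 0.581 CPM in controls, and rose by 3.48 on the log2 scale (edgeR, adjusted p = 3.25e-09). The T cell markers CD3G, CD2 and CD28 fell, with log2 fold changes of -0.48, -0.25 and -0.22 (edgeR, adjusted p = 8.03e-05, 0.00539 and 0.0265). The part of these changes in the results below was not tested. Levels below are CPM, given as the lowest, median and highest of 8 libraries. CPM is not divided by gene length, so levels are compared between groups and not between genes.

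Start codon selection factors rose, all 3 of 3. EIF1 (ENSG00000173812.11), which keeps the scanning subunit from stopping at wrong codons, stood at 1106, 1283 and 1346 CPM in peroxide cells, against 379, 517 and 804 CPM in controls. Every peroxide library was above every control, and the log2 fold change was 1.24 ± 0.10 (SE; edgeR, adjusted p = 1.88e-09), the largest of the 47. Its paralogue EIF1B (ENSG00000114784.4) stood at 64.5, 68.0 and 79.3 CPM in peroxide cells, against 39.0, 52.9 and 57.6 CPM in controls. The groups again did not overlap, with a smaller change of 0.51 ± 0.07 (edgeR, adjusted p = 2.55e-06). EIF1AX, the eIF1A gene on the X chromosome, stood at 40.8, 59.1 and 78.1 CPM in peroxide cells and 33.6, 49.2 and 61.6 CPM in controls. Its groups overlapped, with 3 of 8 peroxide libraries above all controls and the other 5 inside their range, and it rose by 0.35 ± 0.11 (edgeR, adjusted p = 0.0143). In batch 1 alone it stood at 0.30 ± 0.18 and did not pass.

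Initiator tRNA carriers rose in 3 of 4 cases. EIF2S2 (ENSG00000125977.7), the beta subunit of eIF2, stood at 192, 246 and 295 CPM in peroxide cells, against 129, 149 and 157 CPM in controls. No library of one group reached the range of the other, and the change was 0.75 ± 0.08 (edgeR, adjusted p = 1.28e-07). EIF2A (ENSG00000144895.12), a separate protein that can bring the initiator tRNA without GTP, stood at 173, 205 and 253 CPM in peroxide cells, against 113, 133 and 147 CPM in controls. These groups did not overlap either, and it rose by 0.62 ± 0.07 (edgeR, adjusted p = 1.58e-07). EIF2S1, the alpha subunit that stress kinases phosphorylate, stood at 143, 169 and 218 CPM in peroxide cells and 117, 144 and 199 CPM in controls. It rose by 0.22 ± 0.06 (edgeR, adjusted p = 0.00342), but did not pass in batch 1 alone (0.13 ± 0.09), with every gene kept or with batch left out of the fit. EIF2S3, the gamma subunit that binds GTP and the tRNA, stood at 194, 198 and 228 CPM in peroxide cells and 175, 185 and 203 CPM in controls. Its change of 0.11 ± 0.05 did not pass with edgeR (adjusted p = 0.0841) and passed narrowly with DESeq2 (adjusted p = 0.0491). Subunits of 1 complex thus had estimates from 0.11 to 0.75, and the difference between genes was not tested.

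None of the 5 genes of eIF2B, which recharges eIF2 with GTP, passed in either direction. At an unadjusted p under 0.05, 2 of them would have passed, where 48.3% of all tested genes passed even at the adjusted threshold. Their log2 fold changes ran from -0.14 ± 0.06 (EIF2B3) to 0.12 ± 0.06 (EIF2B5). EIF2B5, the catalytic subunit, stood at 119, 144 and 159 CPM in peroxide cells and 106, 127 and 170.2 CPM in controls, with overlap over most of the range. EIF2B1, the alpha subunit, stood at 93.5, 98.8 and 105 CPM in peroxide cells and 98.8, 106 and 120.4 CPM in controls, and 4 of its 8 peroxide libraries lay below all controls. EIF2B3, the gamma subunit, stood at 23.6, 25.4 and 28.8 CPM in peroxide cells and 26.5, 28.0 and 31.7 CPM in controls, and 6 of its 8 peroxide libraries lay below all controls. EIF2B1 (-0.12 ± 0.05, adjusted p = 0.0647) and EIF2B3 (adjusted p = 0.0831) were close to the threshold in edgeR. EIF2B1 passed as lower without control 3, control 6 or peroxide 8 (adjusted p 0.0345 to 0.0473), EIF2B3 without peroxide 8 (adjusted p = 0.0353), and both with total counts. EIF2B5 passed as higher without control 2 (adjusted p = 0.0247) and in batch 2 alone. EIF2B2 and EIF2B4, the beta and delta subunits, stood at -0.05 ± 0.07 and 0.07 ± 0.07.

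The scaffold eIF3 rose in 9 of its 13 genes and fell in none, by small amounts. The called genes ran from 0.17 ± 0.06 (EIF3K) to 0.38 ± 0.05 (EIF3E) on the log2 scale. EIF3E, EIF3G and EIF3H rose most. EIF3E stood at 379, 459 and 554 CPM in peroxide cells and 306, 349 and 427 CPM in controls, with a change of 0.38 ± 0.05 (edgeR, adjusted p = 2.81e-06), and 4 of its 8 peroxide libraries lay above all controls. EIF3H stood at 348, 394 and 473 CPM in peroxide cells and 277, 306 and 351 CPM in controls, and rose by 0.37 ± 0.05 (edgeR, adjusted p = 1.75e-06). There 7 of 8 peroxide libraries were above all controls. EIF3G, an RNA-binding subunit, stood at 178, 225 and 279 CPM in peroxide cells and 130.2, 176 and 241 CPM in controls, and rose by 0.37 ± 0.07 (edgeR, adjusted p = 0.000129). Its estimate was 0.20 ± 0.09 in batch 1 and 0.55 ± 0.08 in batch 2, a difference that did not pass (edgeR interaction, adjusted p = 0.0794), and the call was lost in batch 1 alone.

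EIF3M was the eIF3 gene whose groups did not overlap. It stood at 336, 364 and 388 CPM in peroxide cells, against 302, 311 and 322 CPM in controls, and rose by 0.23 ± 0.05 (edgeR, adjusted p = 0.000372). Its spread was narrow in both groups, so a small rise separated them. EIF3J, a loosely bound subunit, rose by 0.25 ± 0.07, EIF3F by 0.22 ± 0.06, EIF3L by 0.22 ± 0.06, EIF3D, which can itself bind the cap of some mRNAs, by 0.20 ± 0.06, and EIF3K by 0.17 ± 0.06. Each of these 5 lost its call under at least 1 alternative, EIF3J in batch 2 alone and the other 4 in batch 1 alone, and EIF3D, EIF3K and EIF3L lost it with total counts. EIF3K (adjusted p = 0.0326) was lost too on leaving out control 1, 4, 5, 6 or 8, or peroxide 2, 3, 6 or 8 (edgeR, adjusted p 0.0502 to 0.0879). EIF3A, the largest subunit, stood at 419, 593 and 719 CPM in peroxide cells and 414, 553 and 718 CPM in controls, and its change of 0.13 ± 0.06 did not pass (adjusted p = 0.0828, edgeR). EIF3A passed as higher without control 2, control 5 or peroxide 8 (adjusted p 0.0244 to 0.0433). EIF3B and EIF3I, which bind each other in the complex, stood at 0.13 ± 0.07 and 0.11 ± 0.07, and both passed without control 2 (adjusted p = 0.0306 and 0.0330) and in batch 2 alone.

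EIF3C stood apart from the other eIF3 genes. It held 6.20, 8.37 and 14.2 CPM in peroxide cells and 6.68, 11.1 and 19.0 CPM in controls, and its change of -0.31 ± 0.14 did not pass (edgeR, adjusted p = 0.0622). It passed as lower without control 1, 3 or 7 or peroxide 1 (adjusted p 0.0252 to 0.0360), with total counts, without a filter, and without control 1 and peroxide 5 together (adjusted p = 0.0354). EIF3C has a near-identical copy, EIF3CL, and a read that fits both is counted for neither, so its level is uncertain.

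The helicases of the eIF4A family rose, all 3 of 3, and 2 of them by more than 2-fold. EIF4A2 (ENSG00000156976.17), a helicase of eIF4F that unwinds the 5′ ends of mRNAs, stood at 367, 844 and 1108 CPM in peroxide cells, against 262, 331 and 480.0 CPM in controls. All peroxide libraries but peroxide 6 were above all controls, and the change was 1.12 ± 0.10 (edgeR, adjusted p = 1.15e-08). Its level was higher in batch 1 than in batch 2 in both groups. In batch 1 peroxide libraries held 957 to 1108 CPM and controls 368 to 480.0 CPM, and in batch 2 peroxide libraries held 367 to 730.5 CPM and controls 262 to 294 CPM. The groups did not overlap within either batch, and the log2 fold change was 1.27 ± 0.10 in batch 1 and 0.98 ± 0.15 in batch 2. EIF4A3 (ENSG00000141543.12), the helicase at the core of the exon junction complex, stood at 247, 335 and 469 CPM in peroxide cells, against 134, 154 and 199 CPM in controls. Every peroxide library was above every control, and the change of 1.11 ± 0.07 (edgeR, adjusted p = 2.15e-11) had the smallest adjusted p of the 47 genes. It was 1.13 ± 0.10 in batch 1 and 1.09 ± 0.08 in batch 2.

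EIF4A1 (ENSG00000161960.15), the other eIF4F helicase, stood at 22.8, 43.7 and 49.7 CPM in peroxide cells, against 12.5, 25.1 and 36.0 CPM in controls. It rose by 0.69 ± 0.14 (edgeR, adjusted p = 0.000252), with 6 of 8 peroxide libraries above all controls. Other genes on the same strand, among them the read-through gene SENP3-EIF4A1, cover 48.6% of its exon bases in GENCODE 29, and its 13 processed copies held reads equal to 3.24% of its own. Reads that fall in several genes or fit several places are not counted for it, so its low level is uncertain. The helper proteins of the helicase rose little. EIF4H stood at 204, 243 and 273 CPM in peroxide cells and 176, 211 and 277 CPM in controls, and rose by 0.19 ± 0.05 (edgeR, adjusted p = 0.00638). EIF4B stood at 182, 226 and 271 CPM in peroxide cells and 161, 212 and 230.0 CPM in controls, and rose by 0.16 ± 0.06 (edgeR, adjusted p = 0.0346). The call of EIF4H was lost in batch 1 alone, without a batch term and without a filter. That of EIF4B was lost in either batch alone, with total counts, with batch left out of the fit, with every gene kept, and without control 1, 2, 4, 6 or 7 or peroxide 1, 5, 6 or 7 (edgeR, adjusted p 0.0512 to 0.0896).

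The scaffolds of the eIF4G family moved in different directions. EIF4G2 (ENSG00000110321.17), known as DAP5, lacks the site for eIF4E and supports initiation that does not need it. It stood at 1481, 1784 and 2129 CPM in peroxide cells, against 1037, 1178 and 1453 CPM in controls, with no overlap, and rose by 0.56 ± 0.05 (edgeR, adjusted p = 9.38e-09). EIF4G3 (ENSG00000075151.20), a scaffold that does bind eIF4E, stood at 79.9, 106 and 126 CPM in peroxide cells, against 104, 132 and 175 CPM in controls. It fell, with a log2 fold change of -0.36 ± 0.05 (edgeR, adjusted p = 6.95e-06). The groups overlapped over all libraries, with 4 of 8 peroxide libraries below all controls. Within batch 1 peroxide libraries held 119 to 126 CPM and controls 146 to 175 CPM, and within batch 2 peroxide libraries held 79.9 to 92.4 CPM and controls 104 to 117 CPM, with no overlap in either. EIF4G1, the main scaffold of eIF4F, stood at 369, 506 and 556 CPM in peroxide cells and 356, 505 and 752 CPM in controls, and its change of -0.07 ± 0.08 did not pass (edgeR, adjusted p = 0.488). The rise of EIF4G2 and the fall of EIF4G3 held their calls under all 27 alternatives tried.

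The cap-binding proteins did not pass. EIF4E stood at 21.8, 24.6 and 30.2 CPM in peroxide cells and 18.3, 24.1 and 31.8 CPM in controls, with a change of 0.06 ± 0.09 (edgeR, adjusted p = 0.653). EIF4E2, which binds the cap without eIF4G and is known for repressing translation, stood at 47.1, 58.9 and 75.9 CPM in peroxide cells and 38.9, 57.3 and 80.9 CPM in controls, with a change of 0.10 ± 0.08 (edgeR, adjusted p = 0.330). PABPC1, which binds the poly(A) tail and eIF4G, stood at 1125, 1298 and 1437 CPM in peroxide cells, against 931, 1000.0 and 1148 CPM in controls. It rose by 0.36 ± 0.05 (edgeR, adjusted p = 1.28e-05), with 7 of 8 peroxide libraries above all controls.

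Neither eIF4E-binding protein gene rose. EIF4EBP2 stood at 176, 201 and 208 CPM in peroxide cells and 186, 224 and 258 CPM in controls, and fell with a log2 fold change of -0.16 ± 0.06 (edgeR, adjusted p = 0.0411). This call was lost with the replicate number as a block (-0.16, adjusted p = 0.0662), without a batch term, and without any 1 of controls 1 to 4 or peroxide 1, 2, 3, 4 or 8 (edgeR, adjusted p 0.0543 to 0.0871). EIF4EBP1 stood at 17.0, 41.4 and 93.6 CPM in peroxide cells and 19.6, 46.2 and 93.1 CPM in controls, with a change of -0.04 ± 0.09 that did not pass (edgeR, adjusted p = 0.776). Its level was lower in batch 1 than in batch 2 in both groups. Batch 1 held 17.0 to 24.3 CPM in peroxide libraries and 19.6 to 22.5 CPM in controls, and batch 2 held 58.5 to 93.6 CPM in peroxide libraries and 69.8 to 93.1 CPM in controls.

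Of the factors that act at subunit joining, EIF5 rose and EIF5B and EIF6 did not pass. EIF5 (ENSG00000100664.11), which makes eIF2 spend its GTP at the start codon, stood at 497, 629.7 and 829 CPM in peroxide cells, against 303, 339 and 390.1 CPM in controls. The groups did not overlap, and the change was 0.89 ± 0.07 (edgeR, adjusted p = 3.79e-10), with 1.03 ± 0.09 in batch 1 and 0.75 ± 0.07 in batch 2. EIF5B, the GTPase of subunit joining, stood at 231, 316 and 436 CPM in peroxide cells and 241, 324 and 488 CPM in controls, with a change of -0.01 ± 0.07 (edgeR, adjusted p = 0.933). EIF6, which keeps the large subunit from joining too early, stood at 71.6, 90.0 and 103 CPM in peroxide cells and 82.1, 89.2 and 106 CPM in controls, with a change of -0.07 ± 0.08 (edgeR, adjusted p = 0.493). EIF5A, which helps the ribosome past stalling peptides, stood at 344, 372 and 417 CPM in peroxide cells and 312, 369 and 469 CPM in controls. Its pooled change of -0.03 ± 0.08 did not pass (edgeR, adjusted p = 0.786), and its batches went opposite ways, as given below.

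Elongation factor transcripts rose in all 4 tested genes, by 0.34 to 0.44 on the log2 scale. EEF2 (ENSG00000167658.16), which moves the ribosome by 1 codon, stood at 2772, 3282 and 3595 CPM in peroxide cells, against 2357, 2585 and 2798 CPM in controls. Peroxide libraries lay above all controls in 7 of 8 cases, and the change was 0.35 ± 0.06 (edgeR, adjusted p = 6.86e-05). EEF1A1 (ENSG00000156508.18), which delivers tRNAs, stood at 549.6, 608 and 747 CPM in peroxide cells, against 449.7, 495 and 533 CPM in controls, with no overlap and a change of 0.34 ± 0.06 (edgeR, adjusted p = 6.03e-05). Its level is uncertain, because reads that also fit 1 of its 49 processed copies are not counted. The copies themselves held reads equal to 3.83% of those of EEF1A1. EEF1B2, a subunit that recharges eEF1A with GTP, stood at 236, 271 and 329 CPM in peroxide cells, against 183, 206 and 246 CPM in controls, and rose by 0.40 ± 0.06 (edgeR, adjusted p = 4.71e-06). EEF1D, another such subunit, stood at 127, 163 and 222 CPM in peroxide cells, against 108, 124 and 138 CPM in controls, and rose by 0.44 ± 0.08 (edgeR, adjusted p = 0.000115). In both genes 7 of 8 peroxide libraries lay above all controls. EEF1G had 0 reads in every library, and 99.9% of its annotated exon bases lie in the read-through gene AP002990.1 in GENCODE 29. That gene held 770 reads over the 16 libraries, and the processed copies of EEF1G held 424, so nothing can be said of the level of EEF1G. TPT1 (ENSG00000133112.16), a growth-associated protein with a TOP mRNA, stood at 1048, 1238 and 1495 CPM in peroxide cells, against 746, 795 and 904 CPM in controls. Its groups did not overlap, and it rose by 0.63 ± 0.05 (edgeR, adjusted p = 4.80e-09).

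**Figure D2:**
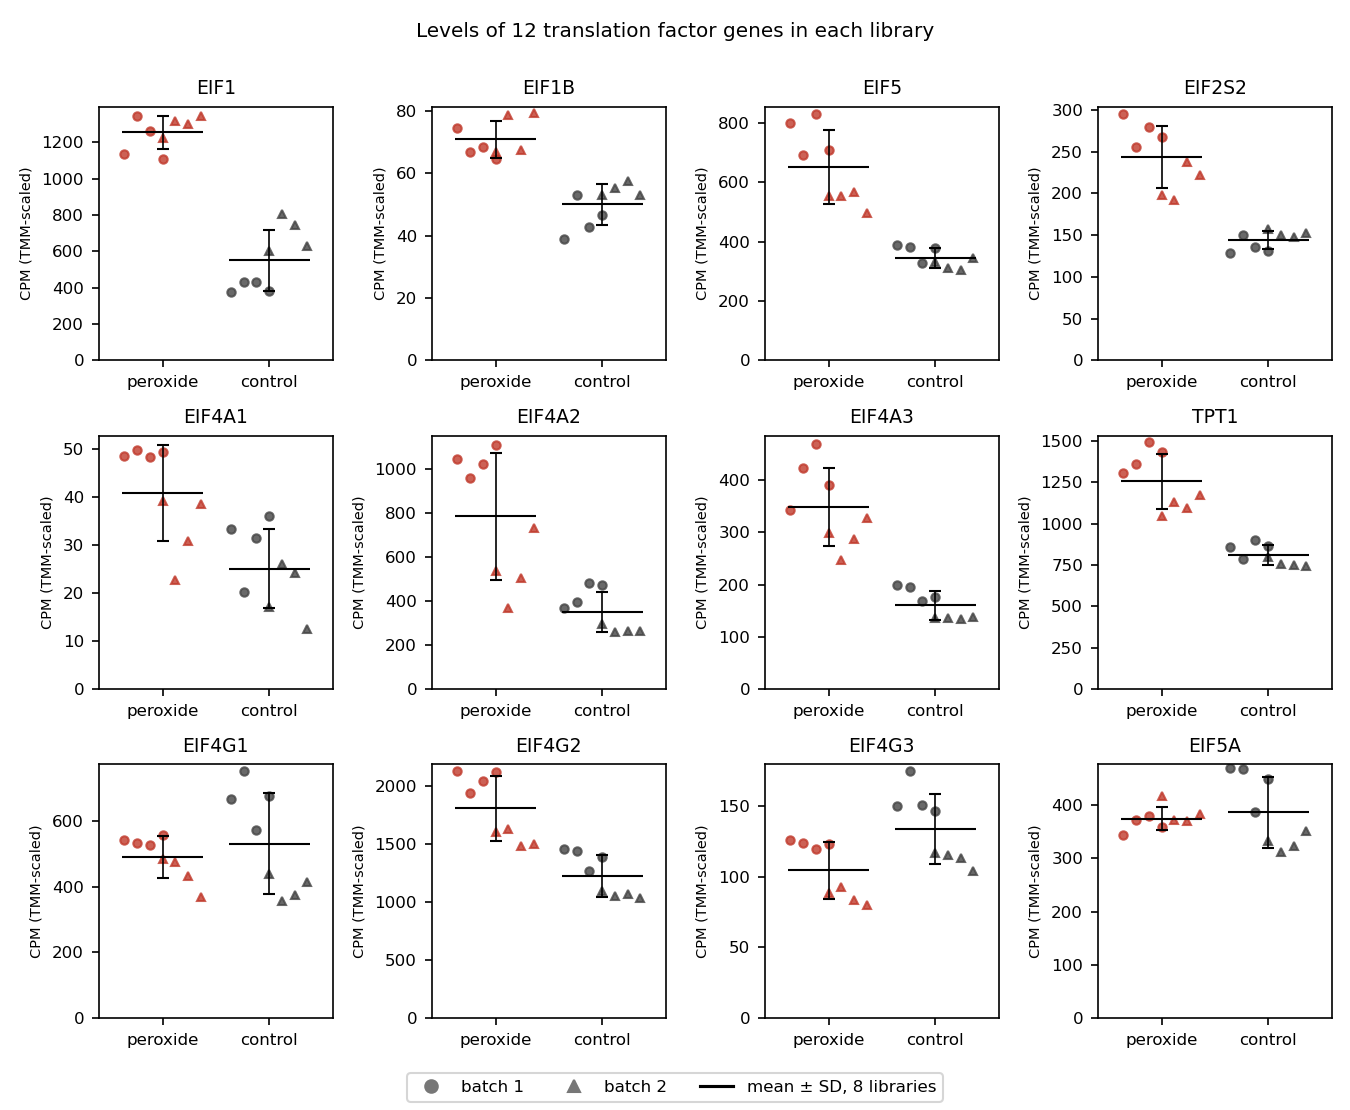
Level in CPM (y axis, linear, from 0) of 12 genes in each of 8 peroxide (red) and 8 control (dark) libraries, with circles for batch 1, triangles for batch 2, and lines for the mean ± SD. EIF1 lies between 1106 and 1346 CPM in all peroxide libraries while its controls split by batch, and EIF4G3 is lower in peroxide libraries within each batch.

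The TOP class was then set beside the other genes. Of the 10 genes whose mRNAs are known to carry the tract (EEF1A1, EEF1B2, EEF1D, EEF1G, EEF2, EIF3E, EIF3F, EIF3H, PABPC1 and TPT1), all 9 that were tested rose, with a median log2 fold change of 0.37 and a range of 0.22 to 0.63. In batch 1 alone 8 of the 9 passed as higher and in batch 2 alone all 9 did. Among all tested genes 24.1% rose and 24.3% fell in the fit to all libraries. In batch 1 alone 20.4% of all genes rose, and in batch 2 alone 19.4% did. Of the 38 genes not on this list, some of which also have such a tract at an annotated start, 19 rose and 2 fell. Their median was 0.15, with a wider range of -0.36 to 1.24. The class was chosen with results of these data known, so its count is a description.

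The genes were also split by annotated start site. Those on chromosome 8 were left out, so EIF3E, EIF3H, PABPC1 and EEF1D of the known TOP genes are not in this split. In all, 12 tested genes had a start that is a C followed by pyrimidines for at least 5 bases in all, and 11 of them rose, with a median log2 fold change of 0.28. EIF2S3 was the exception, with a tract of 7 bases and a change of 0.11 ± 0.05 that did not pass. Of the 26 other genes with an entry that was used 10 rose and 2 fell, with a median of 0.11. Among all tested genes with an entry, where no chromosome was left out, 232 of 773 with such a start (30.0%) and 2210 of 9523 without it (23.2%) rose. By the longest tract of a gene's starts, 7.51% of all tested genes with an entry had such a start. Of all 35116 promoter entries, 4.07% had it. With the C allowed within 5 bases of the annotated start, 15 of 20 genes with a tract and 6 of 18 without one rose. Over all tested genes with an entry, 744 of 3032 with such a tract (24.5%) and 1698 of 7264 without it (23.4%) rose. The wider tract was held by 29.4% of all tested genes with an entry and by 21.1% of all entries. The length of the tract did not order the changes, since EIF4A2 with 6 bases rose by 1.12 and EIF3D and EIF3F with 10 bases rose by 0.20 and 0.22. EIF1, EIF4A3 and EIF5 rose by 0.89 or more without a tract at the annotated start itself, and of these EIF1 and EIF5 held one of 5 bases within the wider window.

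**Figure D3:**
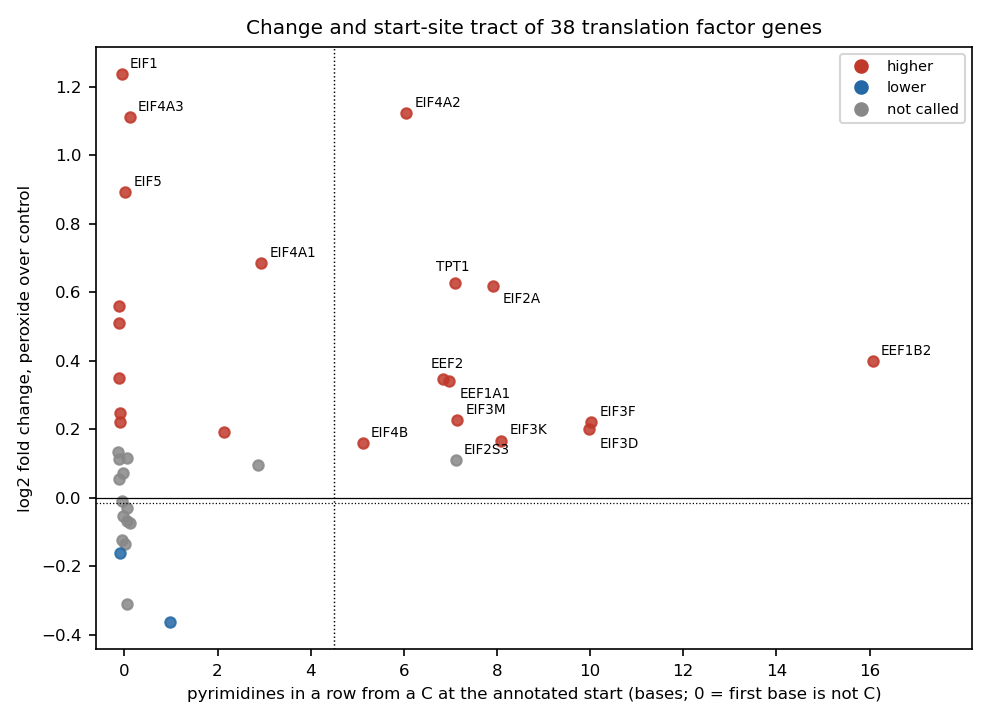
Number of pyrimidines in a row from a C at the annotated start (x axis, bases, longest of a gene's starts, points spread slightly sideways) and log2 fold change of peroxide over control (y axis) for the 38 tested genes with a promoter entry that was used. Genes on chromosome 8 were left out. Red points rose, blue points fell and grey points did not pass; the vertical dotted line separates tracts of 5 bases or more, where 11 of 12 genes rose, and the horizontal dotted line is the median of all tested genes.

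Promoter windows from 250 bases before to 50 after each start were also searched on both strands for a pair of motifs of stress-responsive factors. Windows of these genes on chromosome 8 were left out, while the share over all entries left out no chromosome. The sequence TGATGNAA, the core of the site known for ATF4 with CEBP partners, was found in 0 of the 53 windows of these genes and in 3.62% of all entries. TGACGTCA, the palindromic site of CREB and ATF factors, was found in 1 window, that of EEF2, and in 1.85% of all entries. It lies within the bases of EEF2 shown above and begins 13 bases before the annotated start. A match by letters does not show binding, and no match says only that these letters are not in the window.

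The changes were also taken in each batch. In batch 1 alone 19 of the 47 genes rose and 5 fell, where 20.4% and 17.2% of all genes tested in that batch did. In batch 2 alone 31 rose and 1 fell, where 19.4% and 19.1% of all genes did. In both batches taken alone 18 rose, beside 12.8% of all genes, and EIF4G3 fell in both, beside 9.98% of all genes. A test of the interaction of batch and group called 7 genes, EIF1, EIF2S2, EIF4E2, EIF4G1, EIF4EBP2, EIF6 and EIF5A, beside 4.88% of all tested genes. The share over all genes ran from 2.34% without peroxide 5 to 8.63% without peroxide 2.

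The rise of EIF1 and EIF2S2 was larger in batch 1. EIF1 rose by 1.58 ± 0.09 in batch 1 and 0.90 ± 0.09 in batch 2, an interaction of -0.68 ± 0.13 (batch 2 minus batch 1; edgeR, adjusted p = 0.00591). In batch 1 its peroxide libraries held 1106 to 1344 CPM, against 379 to 432 CPM in controls. In batch 2 peroxide libraries held 1222 to 1346 CPM, against 603 to 804 CPM in controls. Controls were thus separated by batch and peroxide libraries were not. EIF2S2 rose by 1.01 ± 0.08 in batch 1 and 0.49 ± 0.07 in batch 2, an interaction of -0.53 ± 0.11 (edgeR, adjusted p = 0.00873). In batch 1 its peroxide libraries held 256 to 295 CPM, against 129 to 151 CPM in controls. In batch 2 peroxide libraries held 192 to 237 CPM, against 148 to 157 CPM in controls. Here the peroxide libraries were separated by batch and the controls were not.

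EIF5A changed in opposite directions. In batch 1 its peroxide libraries held 344 to 380.3 CPM and its controls 387 to 469 CPM, a log2 fold change of -0.29 ± 0.08 (edgeR, adjusted p = 0.0144). In batch 2 its peroxide libraries held 371 to 417 CPM and its controls 312 to 351 CPM, a log2 fold change of 0.23 ± 0.07 (edgeR, adjusted p = 0.0171). The interaction was 0.51 ± 0.10 (edgeR, adjusted p = 0.00841). Its controls were lower in batch 2 than in batch 1 without overlap, and its peroxide libraries overlapped between batches. For EIF4G1 the estimates were -0.31 ± 0.09 in batch 1, where it passed as lower, and 0.16 ± 0.09 in batch 2, an interaction of 0.46 ± 0.13 (edgeR, adjusted p = 0.0475). For EIF6 they were -0.28 ± 0.10 in batch 1, where it passed as lower, and 0.14 ± 0.07 in batch 2, an interaction of 0.42 ± 0.12 (edgeR, adjusted p = 0.0415). EIF4E2 stood at -0.13 ± 0.09 in batch 1 and 0.33 ± 0.08 in batch 2, where it passed as higher, an interaction of 0.46 ± 0.12 (edgeR, adjusted p = 0.0313). EIF4EBP2 stood at -0.34 ± 0.08 in batch 1, where it passed as lower, and 0.01 ± 0.07 in batch 2, an interaction of 0.35 ± 0.10 (edgeR, adjusted p = 0.0491). The interactions of EIF1, EIF2S2 and EIF5A passed in each of the 16 fits that left out 1 library. That of EIF4E2 was lost without control 4, 6, 7 or 8 or peroxide 3, 4, 5 or 6 (adjusted p 0.0510 to 0.0687, edgeR). That of EIF4EBP2 was lost without any 1 library other than control 2, peroxide 1 and peroxide 8 (adjusted p 0.0530 to 0.108), that of EIF4G1 without any 1 other than control 3, control 5, peroxide 2 and peroxide 8 (adjusted p 0.0530 to 0.109), and that of EIF6 without any 1 other than control 1, control 4, control 7 and peroxide 2 (adjusted p 0.0513 to 0.0884).

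**Figure D4:**
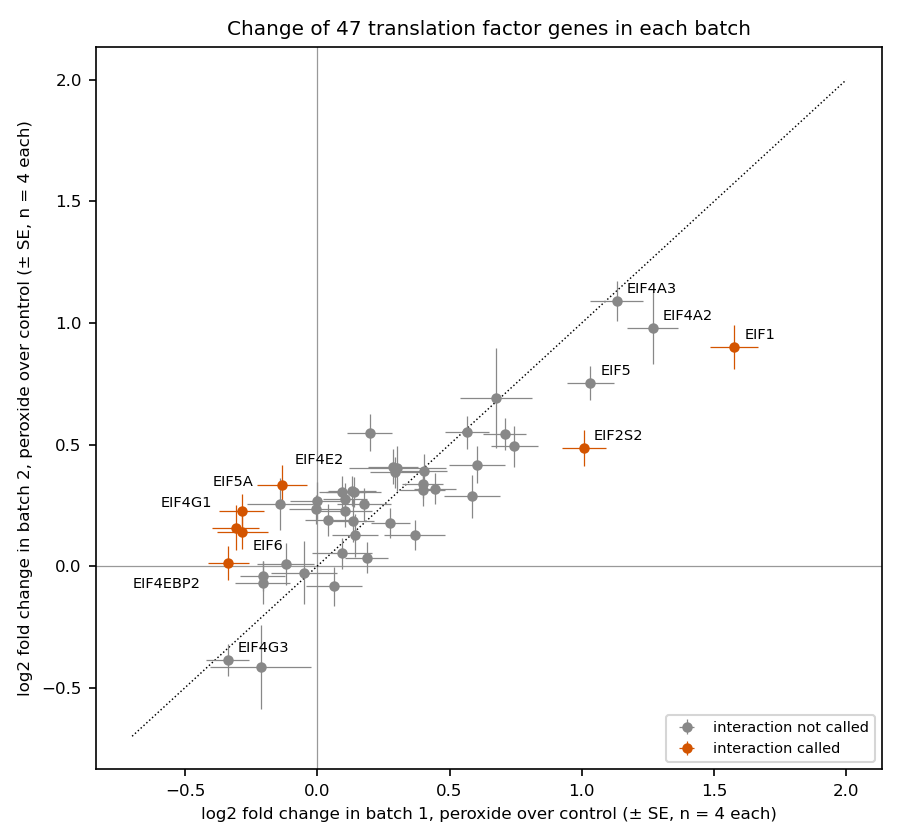
Log2 fold change of peroxide over control in batch 1 (x axis) and batch 2 (y axis) for 47 genes, with bars of 1 SE and the dotted line marking equal changes. Orange points are the 7 genes with a called interaction, with EIF1 and EIF2S2 below the line and EIF5A, EIF4G1, EIF6, EIF4E2 and EIF4EBP2 above it.

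**Figure D5:**
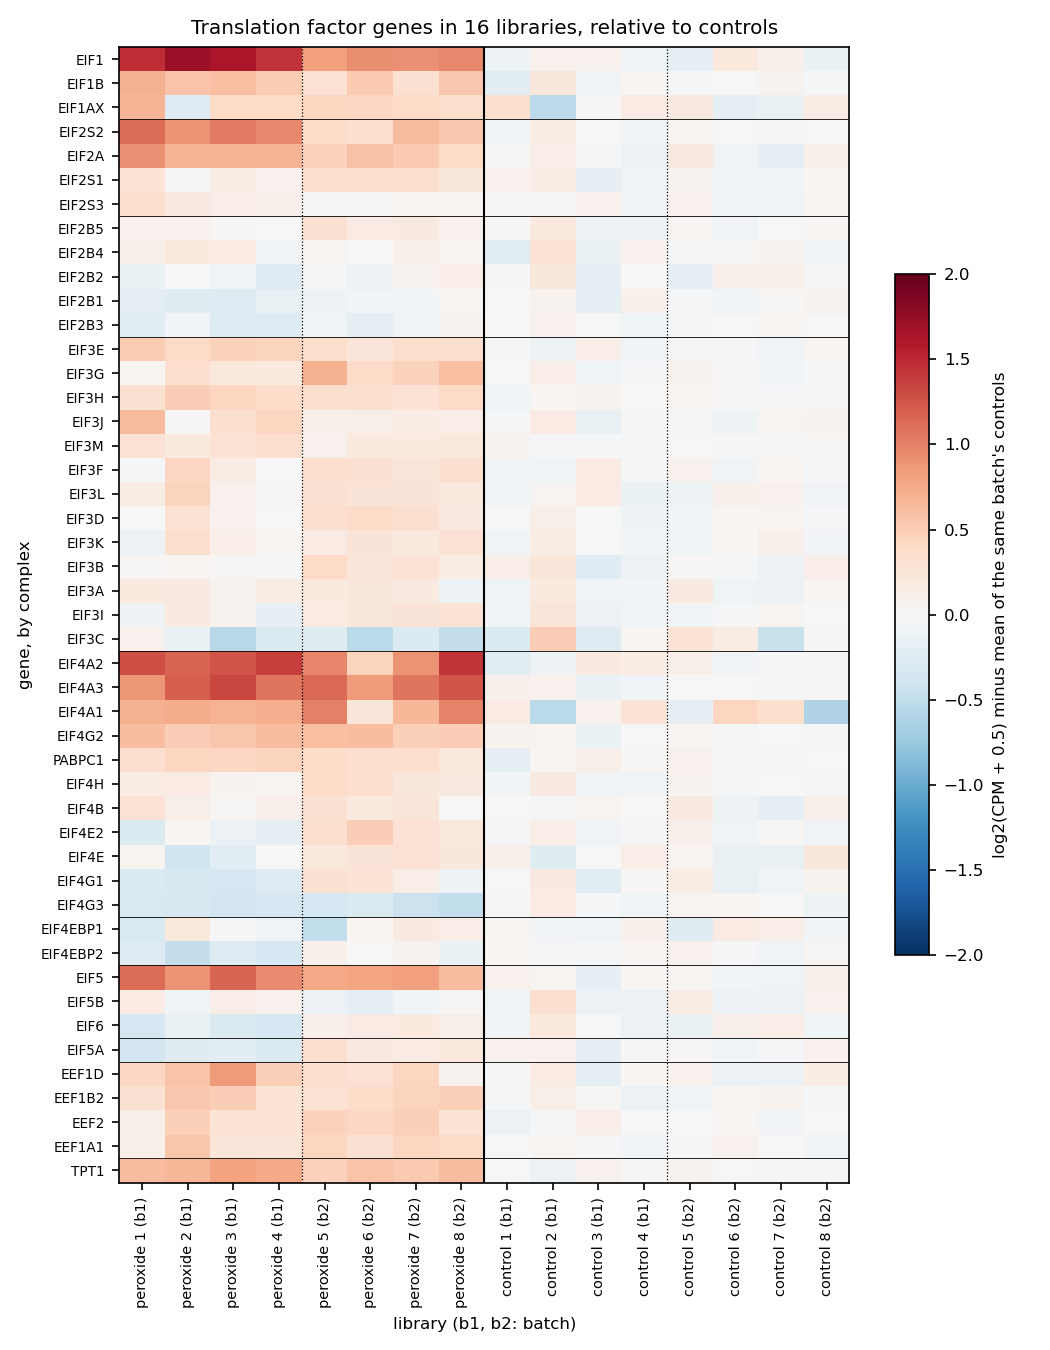
Log2(CPM + 0.5) of the 47 tested genes (rows, by complex) in the 8 peroxide and 8 control libraries (columns), each minus the mean of the controls of its own batch; red is higher and blue lower than those controls. The EIF1, EIF2S2, EIF4A2, EIF4A3 and EIF5 rows are red in all 8 peroxide libraries, and the EIF4G3 row is blue in all 8.

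The share of all reads in genes that fell in the 48 genes was 1.87% ± 0.0642 in peroxide libraries and 1.48% ± 0.0485 in controls (mean ± SD, n = 8 each). It ran from 1.80% to 1.98% in peroxide libraries and from 1.42% to 1.56% in controls, without overlap. The eIF1 group held 0.135% ± 0.0134 in peroxide libraries and 0.0667% ± 0.0203 in controls, the eIF3 group 0.378% ± 0.0218 in peroxide libraries and 0.338% ± 0.0270 in controls, and the eIF4 group with PABPC1 0.526% ± 0.0571 in peroxide libraries and 0.399% ± 0.0418 in controls. The eIF2B group held 0.0371% ± 0.000882 in peroxide libraries and 0.0387% ± 0.00263 in controls. Without EEF2 the share of the remaining genes was 1.55% ± 0.0868 in peroxide libraries and 1.21% ± 0.0616 in controls. Within batch 1 the share was 1.92% ± 0.0512 in peroxide libraries and 1.52% ± 0.0288 in controls, and within batch 2 it was 1.82% ± 0.0161 in peroxide libraries and 1.44% ± 0.0112 in controls (n = 4 each). A share of reads counts long transcripts more than short ones, so it is not a share of molecules.

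Other genes of translation were called about as often as all genes. Of 69 genes listed by role, 66 were tested, and 17 rose (25.8%) and 14 fell (21.2%), beside 24.1% and 24.3% of all tested genes, with a median log2 fold change of -0.01 both in the list and over all genes. The roles hold 7 to 21 tested genes each, and their counts are given as a description. Termination and recycling factors rose in 3 of 7 cases with 1 lower, kinases and regulators in 5 of 21 with 6 lower, helicases and accessory factors in 5 of 11 with 2 lower, accessory genes of elongation in 3 of 17 with 3 lower, and mitochondrial factors in 1 of 10 with 2 lower. MKNK2, a kinase of eIF4E, stood at 240.3, 315 and 407 CPM in peroxide cells, against 94.3, 114 and 146 CPM in controls, and rose by 1.44 ± 0.09 (edgeR, adjusted p = 3.78e-11). DDX3X, a helicase for structured 5′ ends, rose by 0.83 ± 0.07, the poly(A)-binding protein PABPC4 by 0.64 ± 0.06 and the release factor ETF1 by 0.35 ± 0.05. RPTOR, the mTOR partner that defines the growth-promoting complex of that kinase, stood at 66.8, 73.2 and 87.0 CPM in peroxide cells, against 103, 112 and 123 CPM in controls, and fell with a change of -0.57 ± 0.06 (edgeR, adjusted p = 6.35e-08). LARP1, which binds TOP mRNAs, stood at 418, 475 and 489 CPM in peroxide cells, against 544, 629 and 760.0 CPM in controls, and fell with a change of -0.47 ± 0.06 (edgeR, adjusted p = 2.49e-06). The groups of RPTOR and LARP1 did not overlap. GIGYF2, a partner of EIF4E2, fell with a change of -0.41 ± 0.07, and MTOR itself with -0.26 ± 0.05. These 8 genes were taken by smallest p in each direction, and their calls held under every alternative tried.

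Reads counted for processed copies were few, and adding them moved no call. Of the 48 genes 29 had at least 1 gene named as a copy, and the copies of the tested genes held reads equal to at most 3.83% of their own. With the copies' reads added, all 30 called genes kept their call. Reads that fit both a gene and its copy are counted for neither, so this does not show what they would change. EIF3L shares 41.1% of its exon bases on the same strand with AL022311.1, which held 549 reads. Whether counting used strand is not stated, so reads of genes that overlap on opposite strands cannot be told apart, as for EEF1D, where 34.0% of exon bases overlap a gene on either strand.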

How the data were processed

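Per the labels' protocols, total RNA was isolated with TRIzol from 16 Jurkat E6-1 samples and sequenced as Illumina TruSeq libraries. The labels call the samples biological replicates. Whether each came from a separate culture is not stated, so p-values measure the spread between these libraries. Each deposited table gives 1 library's raw counts of reads by gene, with no normalization. STAR 2.7.1a, HTSeq 0.6.1 and genome build hg19 are named in the submitters' processing notes. The counting mode and its use of strand are not stated there. Identifiers matched GENCODE 29, an annotation of GRCh38, to the version in 68.0% of cases, so no coordinates of genes are printed, and sequences carry the coordinates of the RefSeq table they came from. Symbols matched 60402 of 60662 identifiers (99.6%). The 5 rows of each table that name no gene held 43.5% to 57.6% of counted reads and stayed out of library sizes and tests.

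Genes were kept with filterByExpr in edgeR 4.0.16 (R 4.3.3), which left 14092 genes with 99.6% of the reads in genes. TMM factors set the scale, and the quasi-likelihood test was fitted to group and batch together, with Benjamini-Hochberg adjustment over all 14092 genes and a call at an adjusted p under 0.05. Each SE was obtained from the log2 fold change and its F statistic. Alternatives were DESeq2 1.42.0, total counts, upper-quartile factors, limma-voom (limma 3.58.1), no filter, no batch term, the replicate number as a block, each batch alone, each library left out in turn, the 2 libraries richest in reads with several alignments left out, and reads of processed copies added. Libraries with the same number in both groups deviated together from their group means (correlation 0.21 to 0.55), and each such pair also shares its batch; from the means of group and batch the correlation was -0.15 to 0.17. No libraries agreed within sampling noise, with a chi-square per degree of freedom of 2.75 to 15.9 between libraries of 1 group and batch, and all 16 were kept. A permutation test of the share of reads was planned but its p is not given, since the share sums over chosen genes. All 48 genes are named by complex, with levels for the larger changes, the largest level of a complex and paralogues; of the rest of the machinery 8 are named, the 4 of smallest p in each direction above a mean of 5 CPM. The genes, lists and tests were chosen with earlier results of these data known.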

Additional observations from a re-analysis of the deposited data

Results flagged for a closer look

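EIF2S3 in peroxide 1 (228 CPM), EIF3F in peroxide 2 (199 CPM), EIF3L in peroxide 2 (353 CPM) and EEF1A1 in peroxide 2 (747 CPM) were each higher than the other 7 peroxide libraries by a gap that passes Dixon's criterion for 8 samples. These are 4 of 94 gene and group combinations looked at, and chance gives about 1 in 20. The rises of EIF3F, EIF3L and EEF1A1 passed without peroxide 2.

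The changes of EIF1 and EIF2S2 differed between the batches by -0.68 and -0.53 on the log2 scale (batch 2 minus batch 1). Those of EIF4E2, EIF4G1, EIF4EBP2, EIF6 and EIF5A differed by 0.46, 0.46, 0.35, 0.42 and 0.51. Neither the labels nor the tables say what separates the batches, and its part in these results was not tested.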

How the results depend on the processing

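Of the 30 called genes 19 kept their call and direction under all 27 alternatives, among them EIF1, EIF2S2, EIF2A, EIF4A2, EIF4A3, EIF4G2, EIF4G3, EIF5, EEF2 and TPT1. The share of called genes in the whole table that did so was not counted. Over the 47 genes and all alternatives 1161 values stayed on the same side of the threshold with the same sign, 61 lost a call, 27 gained one and 20 turned sign. The share or number of all tested genes called moved with these settings and stands in parentheses. DESeq2 called 29 higher and 2 lower (24.5% and 24.5% of all genes), upper-quartile factors 28 and 2 (24.4% and 23.9%) and limma-voom 28 and 2 (24.0% and 24.8%). No filter gave 21 and 3 (13.5% and 11.3% of 38177 genes). The median log2 fold change was 0.10 over those 38177 genes and -0.01 over the 14092, which are unlike sets of genes. No batch term gave 20 higher and 1 lower (2534 and 2454 of 14092 genes), batch 1 alone 19 and 5 (20.4% and 17.2%), batch 2 alone 31 and 1 (19.4% and 19.1%), and total counts 24 and 5 (2822 and 4375 of 14092 genes). Leaving out 1 library gave 26 to 31 higher (22.4% to 24.0%) and 1 to 3 lower (22.7% to 25.4%), and 3 to 7 called interactions (2.34% to 8.63%). Of the other translation genes 10 were called higher and 11 lower without a batch term, and 11 higher and 10 lower in batch 2 alone. With the replicate block 28 genes rose and 1 fell (23.5% and 23.9%), EIF4EBP2 lost its call and no other call changed; 7 interactions passed with it (5.93%), 7 with total counts (4.95%) and 8 with DESeq2 (7.87%). Signs turned only for values that did not pass in the fit to all libraries, apart from EIF4EBP2. In batch 1 alone EIF3B stood at -0.000925, EIF3I at -0.0064, EIF4E at -0.14, EIF4E2 at -0.13 and EIF5B at 0.065. In batch 2 alone EIF2B2 stood at 0.0081, EIF4G1 at 0.16, EIF4EBP2 at 0.012, EIF6 at 0.14 and EIF5A at 0.23. EIF4E stood at -0.0064 with total counts, EIF5B at 0.0075 with no batch term, and EIF4EBP1 at 0.043 without the 2 libraries richest in reads with several alignments. Without 1 library EIF4EBP1 ranged from -0.081 to 0.033 and EIF5B from -0.040 to 0.035. The cause of these changes was not tested. Depth was 5556553 to 15720881 reads in genes per library, which limits genes of few reads such as EIF3C.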
